A study of Mus musculus with 22 samples.

Results

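The genes examined here belong to the primitive endoderm, the extraembryonic tissue that lines the blastocyst cavity, and were chosen by name, 10 of the 19938 genes measured in mouse pluripotent cell lines. They were the transcription factors Gata4, Gata6, Sox7, Sox17 and Foxa2, the growth factor receptor Pdgfra, the endocytic adaptor Dab2, and the endocytic receptors Lrp2 and Cubn with their partner Amn. Expression was read from 22 Affymetrix mouse gene arrays, 1 for each line of a group, as log2 values made by RMA. RMA corrects background, equalises the arrays and merges the probes of a probe set. Embryonic germ (EG) lines come from primordial germ cells, here of E8.5 embryos, and embryonic stem (ES) lines from the inner cell mass of the blastocyst.

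The groups were 4 EG lines derived directly in 2i (EG 2i), 4 EG lines kept for 48 hours in fetal calf serum and then moved to 2i (EG 2is), 4 EG lines in fetal calf serum (EG FCS), 5 ES lines in 2i (ES 2i) and 5 ES lines in fetal calf serum (ES FCS). In 2i, the N2B27 medium carried the MEK inhibitor PD0325901 and the GSK3 inhibitor CHIR99021, and the cells grew on laminin. In FCS, the cells grew in serum on mouse embryonic fibroblast feeders. LIF was present in both, so the inhibitors, the serum and the feeders changed together and cannot be told apart. Every array had the same strain label, 129SvEv crossed with Oct4-delta-PE-GFP transgenic mice on a mixed background, so all groups carried this Oct4 reporter, and the design text calls the embryos genetically identical. Once established, ES lines were moved from one culture to the other too, and the labels do not say which culture an ES line was derived in. Nor is it stated whether the ES lines in 2i and in FCS are the same lines. The 22 arrays may therefore come from fewer than 22 lines.

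The cell-type label read EGCs on all 22 arrays, also on the 10 whose titles and source names say ES, and these were taken as ES lines. All 12 EG arrays belonged to batch 1, and the ES arrays were divided over batches 1 and 2, with 2 and 3 lines of each culture. By label, female and male lines numbered 3 and 1 in EG 2i, 2 and 2 in EG 2is, and 1 and 3 in EG FCS. ES 2i and ES FCS each had 2 female and 3 male lines. Sex was thus spread unevenly over the EG cultures, and the fit held a term for it. Array medians lay between 5.54 and 5.62, and arrays of 1 group correlated at 0.982 to 0.998. The Y-linked gene Eif2s3y reached at most 4.88 in arrays labelled female and at least 7.55 in arrays labelled male, and 4.88 was used as the background level. The 8 pluripotency markers had means above that level in all 5 groups, with averages over the markers of 9.69 to 10.70 per line.

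In the blastocyst, FGF4 from the epiblast acts through FGF receptors and the MEK-ERK pathway to favour primitive endoderm, in which GATA6 opposes NANOG, and GATA4, SOX17 and SOX7 follow. The later visceral endoderm takes up maternal proteins through megalin (Lrp2), cubilin (Cubn) and amnionless (Amn), and DAB2 links these receptors to clathrin-coated pits. The 2i inhibitor of MEK blocks that FGF signal.

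The promoters of Lrp2, Cubn and Dab2 are shown because these 3 of the 10 genes had the largest differences between cultures. They come from RefSeq (GRCm38.p6) and run from 250 bases before to 50 bases after a gene start, 5′ to 3′ on the gene's strand, with capitals for the GATA motif GATAA or its reverse complement TTATC. Lrp2 lies at chr2:69585980-69586279 (minus strand), Cubn at chr2:13491827-13492126 (minus strand), and Dab2 has starts with windows at chr15:6299539-6299838 and chr15:6386498-6386797 (both plus strand).
Lrp2: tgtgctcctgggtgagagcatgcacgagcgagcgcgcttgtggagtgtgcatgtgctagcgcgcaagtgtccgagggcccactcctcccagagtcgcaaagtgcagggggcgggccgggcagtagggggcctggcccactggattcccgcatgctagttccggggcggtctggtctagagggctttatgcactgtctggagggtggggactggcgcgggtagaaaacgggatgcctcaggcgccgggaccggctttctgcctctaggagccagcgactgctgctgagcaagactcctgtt
Cubn: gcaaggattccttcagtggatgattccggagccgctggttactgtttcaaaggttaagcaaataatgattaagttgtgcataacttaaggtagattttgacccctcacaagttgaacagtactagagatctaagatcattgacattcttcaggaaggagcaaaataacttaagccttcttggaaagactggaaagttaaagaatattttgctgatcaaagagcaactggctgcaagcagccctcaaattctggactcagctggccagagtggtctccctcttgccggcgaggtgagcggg
Dab2 start 1: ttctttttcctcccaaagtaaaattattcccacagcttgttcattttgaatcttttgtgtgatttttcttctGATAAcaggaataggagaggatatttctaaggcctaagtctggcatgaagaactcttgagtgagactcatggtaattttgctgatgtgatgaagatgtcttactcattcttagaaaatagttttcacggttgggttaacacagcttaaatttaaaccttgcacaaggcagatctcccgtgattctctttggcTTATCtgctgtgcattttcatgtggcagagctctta
Dab2 start 2: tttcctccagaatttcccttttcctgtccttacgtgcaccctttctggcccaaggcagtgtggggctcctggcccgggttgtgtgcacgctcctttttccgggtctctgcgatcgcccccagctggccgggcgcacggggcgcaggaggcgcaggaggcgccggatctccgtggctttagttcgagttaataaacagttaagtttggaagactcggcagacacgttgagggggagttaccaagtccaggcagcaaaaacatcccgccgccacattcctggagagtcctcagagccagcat

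The first Dab2 window held 2 GATAA matches, whose first bases lay at -178 and 14 from the start, and the other 3 windows held 0. Among 32851 mouse promoters of the same length, 25.4% held GATAA on either strand. The FOX motif AAACA (or TGTTT) was matched once in the Cubn window and at 2 positions in the second Dab2 window, against 50.5% of all promoters with a match. The SOX motif ACAAT (or ATTGT) was found in 0 of the 4 windows and in 31.0% of all promoters. The Lrp2 window held 20 CpG dinucleotides, the Cubn window 5 and the Dab2 windows 2 and 19, against a median of 7 over all promoters. A match is a description of letters, and a window with none says only that those letters are not in it. RefSeq windows were read for 6 of the 10 genes.

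**Figure D1:**
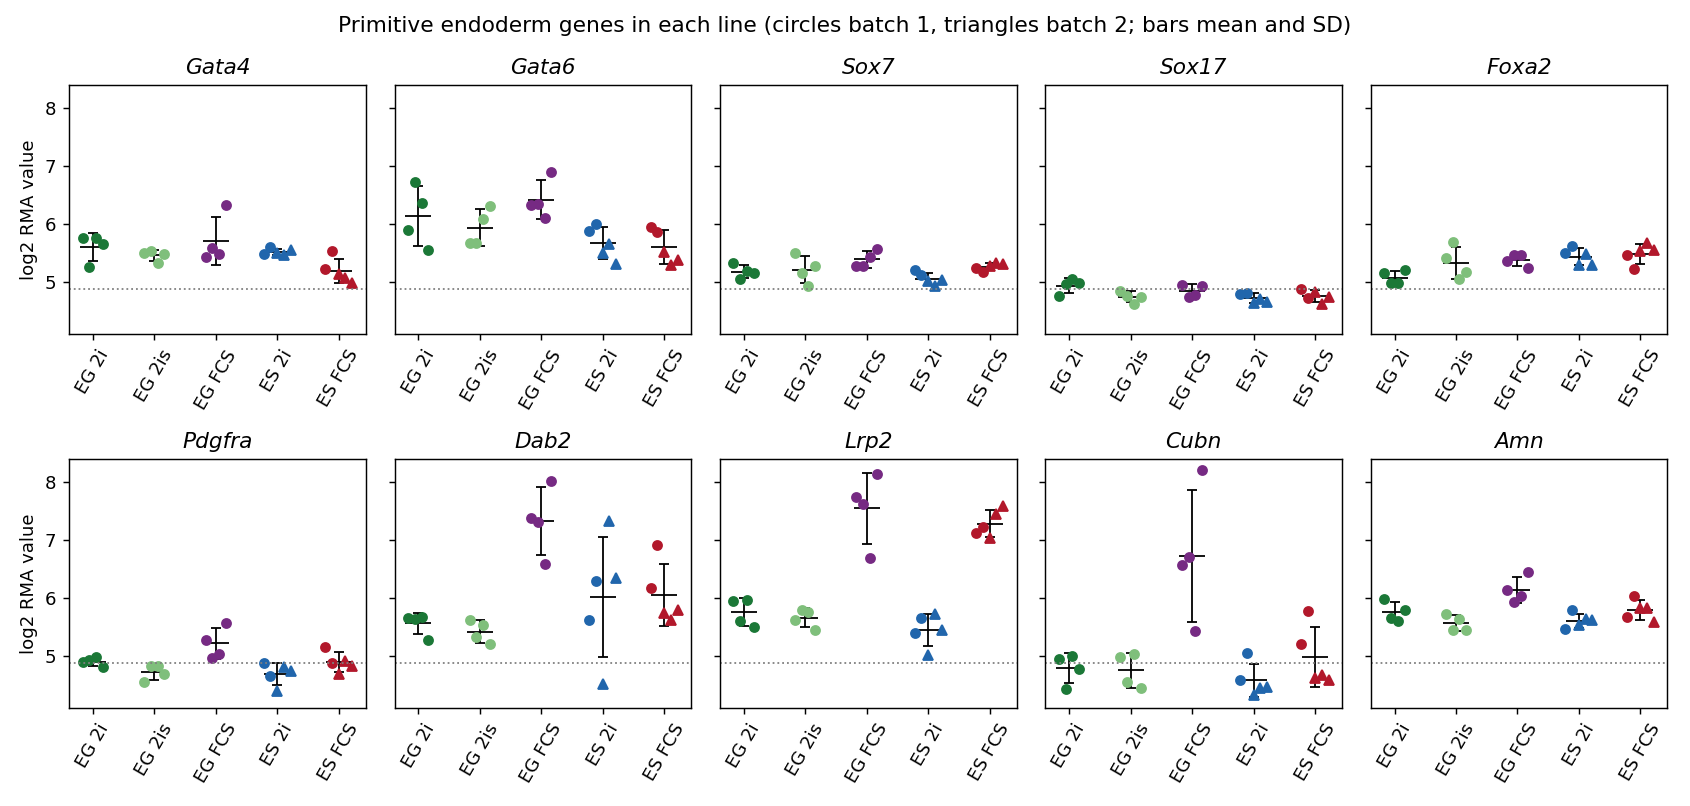
Log2 RMA value (vertical axis) of each of the 10 genes in every line, with 1 panel per gene, 1 point per line (circles batch 1, triangles batch 2), bars for the mean and SD of each group and a dotted line at the background level of 4.88. Lrp2 is low in every 2i and 2is line and high in every FCS line, whereas Cubn is highest in the EG FCS lines, which run from 5.43 to 8.21.

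Lrp2, the multiligand receptor megalin, was lower in 2i in both origins. It measured 5.94, 5.60, 5.97 and 5.49 in EG 2i lines and 5.62, 5.80, 5.76 and 5.44 in EG 2is lines, against 7.74, 7.63, 6.69 and 8.14 in EG FCS lines. In ES cells it measured 5.39, 5.65, 5.02, 5.73 and 5.45 in 2i, against 7.12, 7.23, 7.04, 7.45 and 7.59 in FCS. Every 2i and 2is line lay below every FCS line, and the lowest FCS line was an EG one. The fitted log2 difference was -1.74 ± 0.23 (SE; limma adjusted p = 2.42e-05) for EG 2i against EG FCS, -1.86 ± 0.23 (adjusted p = 5.2e-06) for EG 2is against EG FCS and -1.84 ± 0.20 (adjusted p = 9.54e-07) for ES 2i against ES FCS. The first 2 comparisons share the EG FCS lines. In bulk RNA, fewer cells that make a transcript and less of it per cell cannot be told apart.

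Cubn, the receptor cubilin, was lower in 2i and 2is than in FCS in EG cells. Its values were 4.95, 4.43, 5.00 and 4.78 in EG 2i lines and 4.98, 4.55, 5.04 and 4.44 in EG 2is lines, against 6.57, 6.70, 5.43 and 8.21 in EG FCS lines. The FCS lines spread over a wider range than the others, with line 3 the lowest and line 4 the highest, and did not overlap either 2i group. The log2 difference was -1.86 ± 0.37 (SE; limma adjusted p = 0.00102) for EG 2i and -1.93 ± 0.36 (adjusted p = 0.000432) for EG 2is. The means of both 2i groups, 4.79 and 4.76, lay below the background level, which limits the size that such a difference can show.

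In ES lines Cubn measured 4.58, 5.05, 4.33, 4.45 and 4.46 in 2i, against 5.21, 5.78, 4.61, 4.67 and 4.59 in FCS. The groups overlapped, and the higher FCS values were those of the 2 batch 1 lines. The difference of -0.40 (95% interval -1.06 to 0.26) did not pass the test (limma adjusted p = 0.393). Within batch 1 it was -0.68 (adjusted p = 0.53) and within batch 2 it was -0.21 (adjusted p = 0.0372). All 6 batch 2 values, 4.33 to 4.67, lay below the background level of 4.88, so the batch 2 difference is between values not above background. In batch 1 the values 5.05, 5.21 and 5.78 lay above it and 4.58 below it. The ES 2i mean of 4.57 was below background as well.

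Dab2, the clathrin adaptor, was likewise lower in 2i in EG cells. It measured 5.66, 5.63, 5.67 and 5.28 in EG 2i lines and 5.62, 5.32, 5.54 and 5.20 in EG 2is lines, against 7.38, 7.32, 6.58 and 8.02 in EG FCS lines. No EG 2i or 2is line reached the lowest EG FCS line. The log2 difference was -1.56 ± 0.40 (SE; limma adjusted p = 0.00761) for EG 2i and -1.80 ± 0.39 (adjusted p = 0.0017) for EG 2is. The EG 2i call was lost without EG FCS line 1 (adjusted p = 0.05) or without EG 2i line 4 (adjusted p = 0.0594). These were the only female EG FCS line and the only male EG 2i line, so leaving out either left its group with a single sex.

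Dab2 in ES lines had no such separation, at 5.62, 6.29, 4.51, 7.33 and 6.35 in 2i, against 6.17, 6.92, 5.74, 5.62 and 5.80 in FCS. The ES 2i lines held both the lowest and the highest ES value. The log2 difference of -0.03 (95% interval -0.75 to 0.69; limma adjusted p = 0.966) was -0.59 within batch 1 and 0.34 within batch 2. A second Dab2 probe set stayed between 4.81 and 4.92 in all 5 group means and did not separate the cultures. With the mean of both probe sets, the EG 2i difference was -0.74 (adjusted p = 0.011) and the EG 2is difference -0.86 (adjusted p = 0.00248). Averaging with a flat probe set makes a difference smaller, so these values are no separate measure of its size.

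Amn, which carries cubilin to the cell surface, measured 5.99, 5.66, 5.60 and 5.79 in EG 2i lines and 5.72, 5.45, 5.64 and 5.45 in EG 2is lines, against 6.13, 5.93, 6.03 and 6.44 in EG FCS lines. EG 2is lay below EG FCS in every line, by -0.55 ± 0.11 (SE; limma adjusted p = 0.00138). EG 2i line 1 overlapped EG FCS, and the difference of -0.33 ± 0.12 did not pass the test (adjusted p = 0.0507). In ES lines the difference was -0.18 (adjusted p = 0.204), with 5.47 to 5.79 in 2i and 5.58 to 6.04 in FCS.

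Pdgfra, the receptor for platelet-derived growth factor A and an early surface marker of primitive endoderm, measured 4.89, 4.93, 4.98 and 4.80 in EG 2i lines and 4.54, 4.83, 4.82 and 4.69 in EG 2is lines, against 5.28, 4.97, 5.04 and 5.57 in EG FCS lines. It was lower in EG 2is than in EG FCS, by -0.50 ± 0.12 (SE; limma adjusted p = 0.00363). EG 2i and EG FCS overlapped, and the difference of -0.33 ± 0.12 missed the threshold (adjusted p = 0.0632). The EG 2is and ES 2i means, 4.72 and 4.69, were below background. The ES 2i and ES FCS lines differed by -0.20, which did not pass (adjusted p = 0.173).

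**Figure D2:**
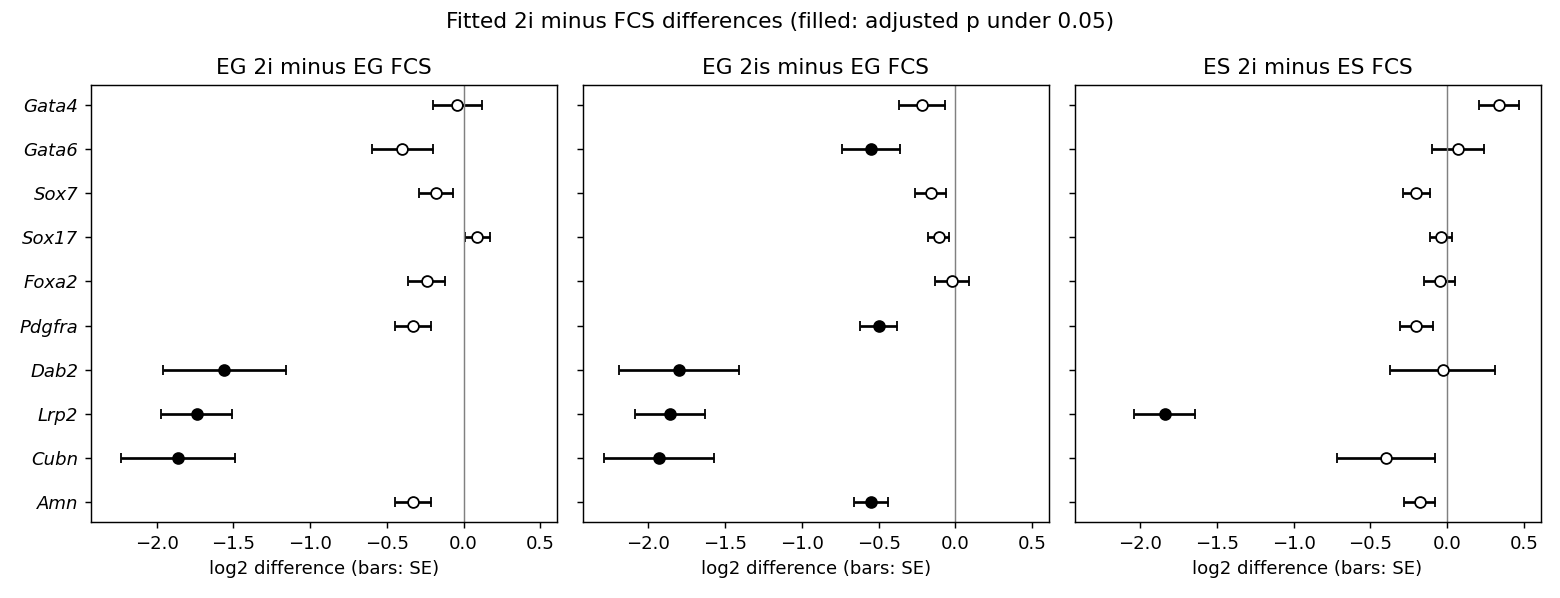
Fitted log2 differences (horizontal axis) of 2i or 2is minus FCS for the 10 genes (vertical axis), with bars of 1 SE and filled points for an adjusted p under 0.05. Lrp2 lies between -1.86 and -1.74 in all 3 panels, and Cubn and Dab2 lie beyond -1.5 in the EG panels but at -0.40 and -0.03 in ES.

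Among the transcription factors, Gata6 in EG 2is was the 1 call in the culture comparisons. GATA6, the zinc-finger factor that starts the primitive endoderm programme, measured 5.90, 6.73, 6.37 and 5.56 in EG 2i lines, 5.67, 5.67, 6.09 and 6.31 in EG 2is lines, and 6.34, 6.35, 6.10 and 6.91 in EG FCS lines. EG 2is was lower than EG FCS by -0.55 ± 0.19 (SE; limma adjusted p = 0.0394), although the groups overlapped, and the call was lost on leaving out EG FCS line 2, EG FCS line 4 or 1 of EG 2is lines 1, 2 and 3 (adjusted p = 0.061 to 0.138 over these 5). It was also lost without the batch term (0.0629), without the sex term (0.0859), with the compared groups alone (0.0591) and in batch 1 alone (0.0695). Gata6 in EG 2i differed by -0.40 (adjusted p = 0.156) from EG FCS, and in ES lines 2i and FCS differed by 0.07 (adjusted p = 0.821).

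GATA4, a later factor of the lineage, ran from 5.26 to 5.77 in EG 2i lines, 5.33 to 5.53 in EG 2is lines and 5.43 to 6.33 in EG FCS lines, and none of its EG differences was called. In ES lines Gata4 measured 5.48, 5.60, 5.51, 5.46 and 5.55 in 2i, against 5.22, 5.53, 5.14, 5.07 and 4.98 in FCS. ES FCS line 2 lay within the 2i range and the other 4 FCS lines below it. The difference of 0.34 ± 0.13 (SE) missed the threshold over both batches (limma adjusted p = 0.0612). It was 0.17 within batch 1 and 0.45 within batch 2 (adjusted p = 0.00345).

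SOX7 and SOX17, SRY-related factors of the endoderm, and FOXA2, a forkhead factor of visceral and definitive endoderm, were called in none of the 3 culture comparisons. Sox7 in ES 2i, at -0.20 (limma adjusted p = 0.0949), passed with only the compared groups in the fit (adjusted p = 0.0376) and in batch 2 alone (-0.31, adjusted p = 0.01), and was -0.04 in batch 1. Sox7 ranged from 4.93 to 5.58 over all lines and Foxa2 from 4.98 to 5.69. Sox17 had means of 4.94 in EG 2i, 4.74 in EG 2is, 4.85 in EG FCS, 4.72 in ES 2i and 4.76 in ES FCS, so only the EG 2i mean lay above the background level. Foxa2 was lower in each EG 2i line (4.98 to 5.20) than in each EG FCS line (5.25 to 5.46), but its difference of -0.24 did not pass (limma adjusted p = 0.161). These 2 groups did not overlap in 24.2% of all genes.

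Over the 10 genes, 3 were called lower and 0 higher in EG 2i against EG FCS, where 23.9% of all genes were called and 12.5% were called lower. In EG 2is against EG FCS, 6 were lower and 0 higher, with 25.6% of all genes called and 12.9% lower. In ES 2i against ES FCS, 1 gene, Lrp2, was lower and 0 higher, with 31.6% of all genes called and 14.9% lower. The medians of the 10 log2 differences were -0.33, -0.52 and -0.12, against medians over all genes of 0.01, -0.01 and 0.00. The compared groups did not overlap in 4, 5 and 1 of the 10 genes, and in 24.2%, 24.5% and 22.2% of all genes.

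EG 2i and EG 2is, derived by different routes into the same medium, were compared next. None of the 10 genes was called, and neither was any other gene (0% of genes called; 1 of the 10 and 10.6% of all genes had an unadjusted p under 0.05). That gene was Sox17, at 0.20 ± 0.07 (SE; limma adjusted p = 0.355). For Lrp2 the difference was 0.12 (95% interval -0.35 to 0.60), for Cubn 0.08 (-0.67 to 0.82) and for Dab2 0.24 (-0.57 to 1.06).

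EG and ES lines were then set against each other in the same culture. In FCS, 0 of the 10 genes were called and 0.01% of all genes, while 5 of the 10 had an unadjusted p under 0.05, as had 4.91% of all genes. Cubn averaged 6.73 ± 1.14 in EG FCS and 4.97 ± 0.52 in ES FCS (SD, n = 4 and 5), with a fitted difference of 1.33 (95% interval 0.52 to 2.15; limma adjusted p = 0.847). Dab2 averaged 7.33 ± 0.59 in EG FCS and 6.05 ± 0.53 in ES FCS (SD), with a fitted difference of 0.96 (0.07 to 1.85; adjusted p = 0.999). It was 0.44 with the mean of both probe sets, the second of them flat and near background. Gata6 was the 1 of the 10 whose groups did not overlap (2.77% of all genes), at 6.10 to 6.91 in EG FCS and 5.29 to 5.96 in ES FCS, with a fitted difference of 0.60 (adjusted p = 0.954). Gata4 differed by 0.39 (adjusted p = 0.998) and Amn by 0.28 (adjusted p = 0.999), which with Cubn, Dab2 and Gata6 make up those 5. Lrp2, not among them, differed by 0.25 (-0.26 to 0.77; adjusted p = 0.999).

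In 2i, 0 of the 10 genes were called between EG 2i and ES 2i (3.72% of all genes called) and 0 between EG 2is and ES 2i (0.0451% called), with 1 and 0 of the 10 at an unadjusted p under 0.05, beside 18.8% and 9.39% of all genes. Foxa2 was lower in every EG 2i line (4.98 to 5.20) than in every ES 2i line (5.29 to 5.62), but its difference of -0.31 did not pass (limma adjusted p = 0.174). It was the 1 of the 10 whose EG 2i and ES 2i lines did not overlap, beside 9.69% of all genes. In ES FCS both batch 1 lines lay above all 3 batch 2 lines for Gata4, Gata6, Dab2 and Cubn, and below them for Sox7 and Foxa2. In ES 2i they lay above for Gata6, Sox7, Sox17, Foxa2 and Cubn, so Sox7 and Foxa2 went the other way there. The share of all genes whose batches separate like this was not computed. None of the 10 genes had a called batch term, and 0.00502% of all genes had one. Since only ES lines span both batches, batch and line cannot be told apart, and the fitted differences between EG and ES depend on the batch term. With batch 1 arrays alone the FCS difference was 1.18 for Cubn, 0.75 for Dab2 and 0.59 for Gata6 (limma adjusted p = 1 for each).

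**Figure D3:**
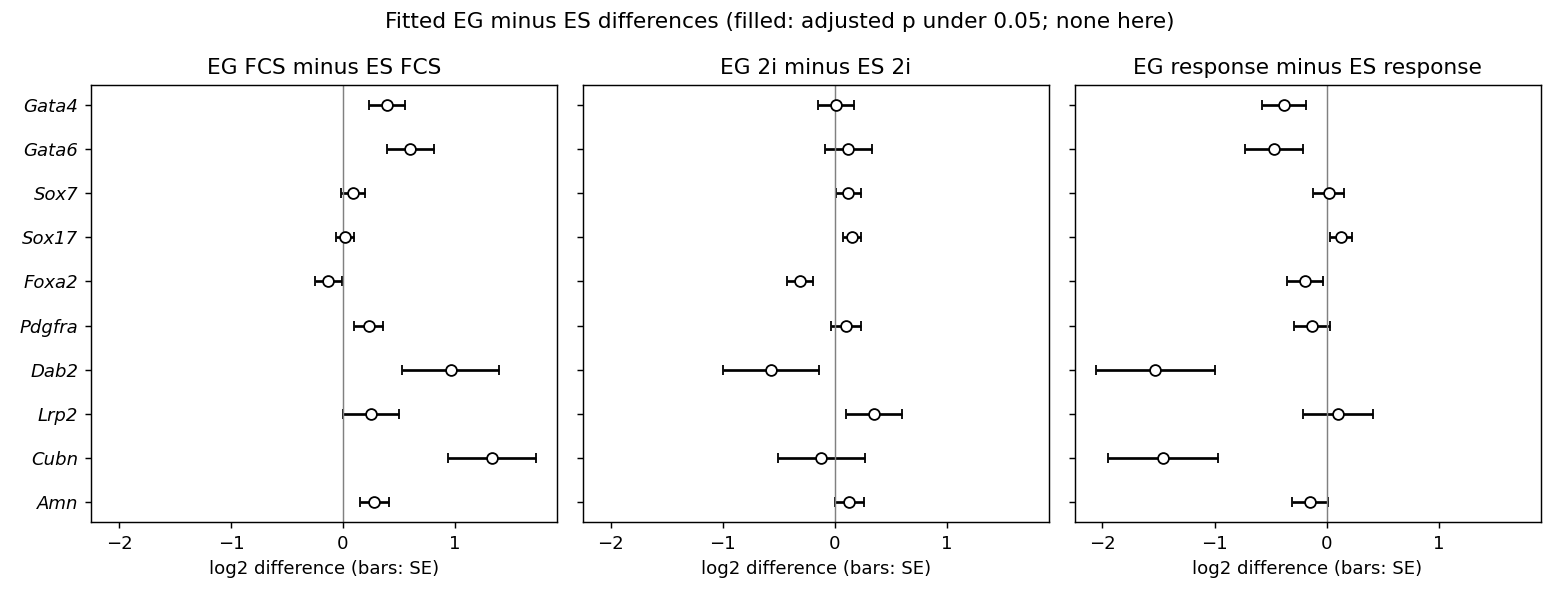
Fitted log2 differences (horizontal axis) of EG minus ES lines in FCS and in 2i, and of the EG response minus the ES response to 2i, for the 10 genes (vertical axis), with bars of 1 SE and filled points for an adjusted p under 0.05. Cubn and Dab2 stand to the right of 0 in FCS, at 1.33 and 0.96, and to the left of it in the response panel, at -1.46 and -1.53, and no point is filled.

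Whether the 2i response itself differed between origins was tested as the EG difference minus the ES difference. For Dab2 it was -1.53 ± 0.53 (SE; limma adjusted p = 0.148) and for Cubn -1.46 ± 0.49 (adjusted p = 0.133), so neither passed over all genes. In ES FCS lines the Cubn mean was 4.97 and 3 of 5 lines lay under 4.88 already, which limits how far it could be lower in 2i. With the mean of both Dab2 probe sets, the second of them flat and near background, the Dab2 value was -0.68 (adjusted p = 0.207). For Lrp2 it was 0.10 (95% interval -0.55 to 0.74; adjusted p = 0.92). Of the 10 genes 0 were called, with 1.44% of all genes called and 2 of the 10 at an unadjusted p under 0.05, beside 15.8% of all genes. Without EG FCS line 3 the Cubn value was -1.86 (adjusted p = 0.0269), and without ES 2i line 3 the Dab2 value was -1.99 (adjusted p = 0.0391). In batch 1 alone the values were -1.16 for Cubn and -1.11 for Dab2.

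Fibroblast markers moved with the culture as well, and per the labels feeders were used in FCS only. Fibroblasts are also known to express Pdgfra and Dab2. The mean log2 level of 20 fibroblast markers was 5.35 to 5.44 in EG 2i, 5.24 to 5.46 in EG 2is and 5.80 to 6.45 in EG FCS lines, and 5.15 to 5.47 in ES 2i against 5.85 to 6.38 in ES FCS lines. Exact two-sided permutation tests gave p = 0.0286 for each EG comparison and p = 0.00794 for ES, the smallest these group sizes allow. Of the 20 markers, 11 were called lower in EG 2i, 13 in EG 2is and 17 in ES 2i (1 was higher there). Of all genes, 12.5%, 12.9% and 14.9% were called lower. The medians of the 20 log2 differences were -0.39, -0.41 and -0.54. Acta2, smooth muscle actin, had far larger differences, at -4.50, -4.52 and -4.05. In EG FCS the markers Dcn and Lum had means below background, and in ES FCS Lum did.

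With the marker level of each array added to the fit, Lrp2 kept its call at -1.61 in EG 2i (limma adjusted p = 0.0134), -1.73 in EG 2is (0.00897) and -1.70 in ES 2i (0.00977). Cubn was then at -1.52 (adjusted p = 0.144) in EG 2i and -1.58 (0.131) in EG 2is, and Dab2 at -1.42 (0.225) and -1.66 (0.15). Gata6 was at -0.22 (0.755), Pdgfra at -0.11 (0.79) and Amn at -0.44 (0.2) in EG 2is. The ES FCS lines, whose marker levels overlapped those of the EG FCS lines, had Cubn values of 4.59 to 5.78, against 5.43 to 8.21 in EG FCS. The marker level did not overlap between FCS and 2i, so this term largely follows the culture and cannot separate fibroblast RNA from culture. In EG 2i the SE rose with it from 0.23 to 0.43 for Lrp2, from 0.37 to 0.67 for Cubn and from 0.40 to 0.74 for Dab2. A call kept or lost in this fit therefore does not measure fibroblast RNA. The part of fibroblast RNA in the differences of the 10 genes was not tested beyond these values.

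**Figure D4:**
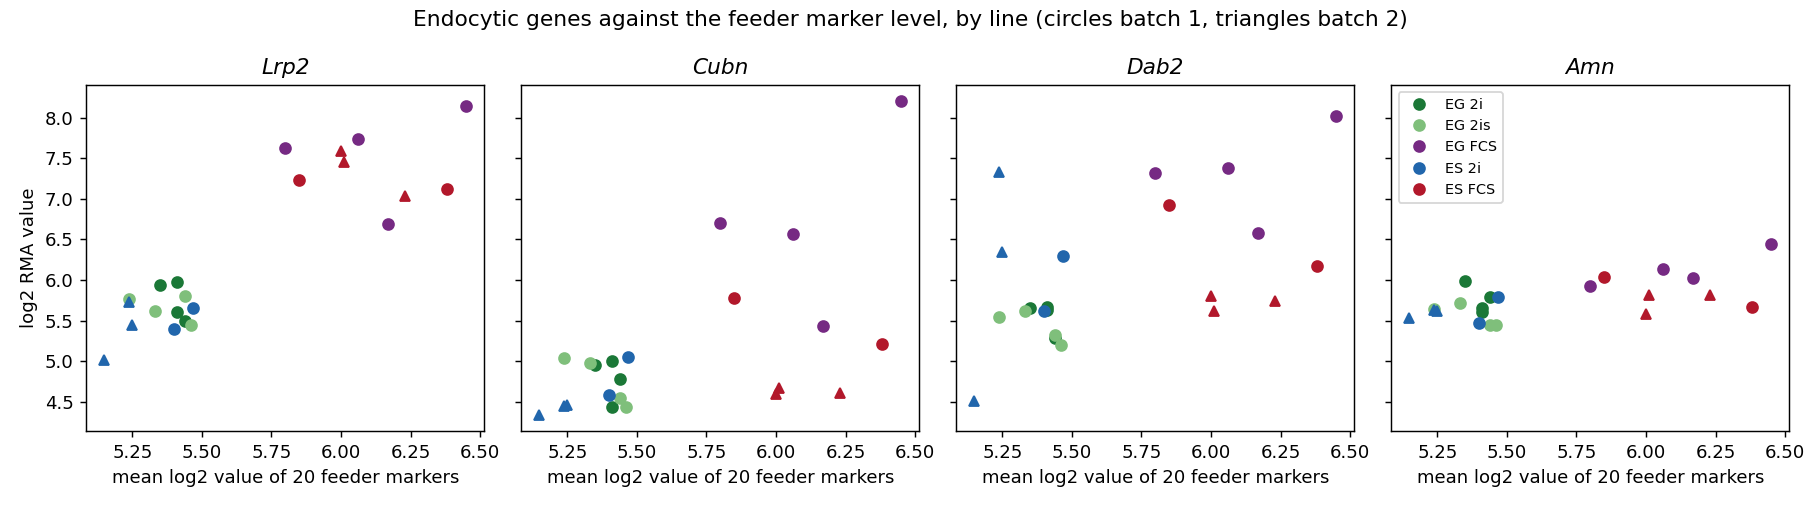
Log2 values of Lrp2, Cubn, Dab2 and Amn (vertical axis, 1 panel each) against the mean log2 level of 20 fibroblast markers (horizontal axis), with 1 point per array, coloured by group (circles batch 1, triangles batch 2). FCS arrays lie at marker levels of 5.80 to 6.45 and 2i or 2is arrays at 5.15 to 5.47, and 3 of the 4 EG FCS arrays lie above every ES FCS array for Cubn.

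Deviations of single lines were also compared across the 10 genes. EG FCS line 4 had the highest value of its group in 8 of the 10 genes, and the highest fibroblast marker level of all arrays (6.45). Over residuals of the fit in the 22 arrays, Lrp2 and Cubn correlated at 0.72, Dab2 and Lrp2 at 0.61 and Dab2 and Cubn at 0.52. Without EG FCS line 4, left out after seeing the data, these were 0.63, 0.56 and 0.49. Of the 45 pairs of genes 34 were positive and 9 exceeded 0.5, against 26 and 3 without that line. The shares over pairs of all genes were not computed, so these counts have no background beside them. Points share an array and its normalisation, and the values describe these arrays only. The genes most like Lrp2 in these residuals were Zfp407 at 0.83, 1700018A04Rik at 0.81 and Zbtb42 at 0.77. For Dab2 they were Gramd4 at 0.89, Slc6a12 at 0.87 and Slc28a3 at 0.86, and for Cubn Srgn and Gata4 at 0.79 each and Dram1 at 0.76. The Gata4 and Cubn value was 0.45 without EG FCS line 4. These like genes were picked as the highest among 19938 genes, so their values are high in part by that choice.

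Signalling genes upstream of the lineage were measured too. Fgfr2, an FGF receptor of the primitive endoderm, was lower by -1.38 in EG 2i, -1.45 in EG 2is and -2.01 in ES 2i (limma adjusted p = 3.95e-05, 1.17e-05 and 4.18e-08). Pdgfa, the ligand of PDGFRA, was higher by 0.66, 0.66 and 1.03, and Nanog, the epiblast factor that opposes GATA6, by 0.73, 0.66 and 0.60. Fgf4, the epiblast ligand, rose by 0.59 in ES 2i (adjusted p = 0.000279), and its EG differences of 0.21 and 0.30 were not called. Of the 9 FGF and PDGF genes, 1 was higher and 1 lower in each EG comparison, and 2 and 2 in ES, where Pdgfb was lower by -0.84. The EG counts are near the shares of all genes called, 23.9% and 25.6%, and the ES count stands beside 31.6%. The Pdgfb response differed between origins by 0.85 (adjusted p = 0.0109).

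Other receptors of the LDL receptor family, to which megalin belongs, were counted as well. Of 11 measured, 3 were higher in EG 2i, 4 in EG 2is and 4 in ES 2i, and 0 were lower in any, while 11.4%, 12.7% and 16.6% of all genes were higher and 12.5%, 12.9% and 14.9% lower. The medians of the 11 were 0.17, 0.19 and 0.28. Sorl1, a sorting receptor, was higher by 1.14, 1.47 and 1.08, and Vldlr, a lipoprotein receptor, by 0.72 and 0.76 in the EG comparisons. Among 15 adaptors and chaperones of endocytosis, 2 were higher and 1 lower in EG 2i, 3 and 1 in EG 2is, and 4 and 1 in ES 2i. These counts are near the shares of all genes called in the 3 comparisons, 23.9%, 25.6% and 31.6%. Lrpap1, the chaperone of megalin, was called in none of the 3 (-0.23, -0.12 and 0.36).

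Genes of differentiated endoderm were counted in the same way. Of 15 visceral endoderm secreted and transport genes, 4 were lower in EG 2i, 2 lower and 1 higher in EG 2is, and 5 lower in ES 2i, beside 12.5%, 12.9% and 14.9% of all genes lower, with Cldn7, a tight junction protein, at -0.97, -0.78 and -1.15. Of 12 basement membrane and parietal endoderm genes, 4 were lower and 1 higher in EG 2i, 5 and 1 in EG 2is, and 3 and 4 in ES 2i, beside the same shares lower and 11.4%, 12.7% and 16.6% higher. Lamb1, a laminin chain, was lower by -2.80, -2.59 and -1.93, whereas Nid1, which binds laminin, was higher by 1.75 in EG 2is and 1.67 in ES 2i. Of 7 further endoderm transcription factors, 1 was lower in each comparison, Foxa1, at -0.34, -0.36 and -0.25. In EG 2is 1 was higher, Hhex at 0.38, and 1 in ES 2i, Hnf4a at 0.24. Of all genes, 23.9%, 25.6% and 31.6% were called in either direction. Fibroblasts also make Lamb1 and other basement membrane genes, and the fall of the fibroblast markers given above stands beside these counts.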

How the data were processed

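Per the labels, total RNA was hybridised to arrays, with 1 array for each line of a group. The deposited values are log2 RMA values, made with RMA in Affymetrix Expression Console (limma is named too), per the submitters' processing notes, which give no versions here. The table held 28853 probe sets, 21789 with 1 gene symbol, 1621 with several and 5443 with none. Each gene was read from its probe set with the highest mean, which gave 19938 genes. All 22 arrays were fitted with limma 3.58.1 (R 4.3.3), with terms for group, batch and sex and 15 residual degrees of freedom. Tests are two-sided, with Benjamini-Hochberg adjustment over all genes, and called at 0.05. Replicates are lines of 1 group, 1 array each, so p-values measure the spread between lines and their arrays together. The number of arrays limits the precision, and intensities near background compress differences. Same-numbered ES lines share sex and batch in 5 of 5 pairs, but whether they are the same line is not stated, and their correlations of -0.01 to 0.24 do not settle it, so no pairing was used in the fit. The 10 genes and the lists were chosen with earlier results of these data known. All 10 genes are named in each comparison, with up to 3 called genes of each list by adjusted p, and Pdgfa, Lrpap1, Fgf4, Fgfr2, Nanog and Eif2s3y. The genes most like each of the 10 are the 3 with the highest residual correlation. Some genes of the lists are not reported here. Of the probe sets with 1 symbol, 21698 matched RefSeq genes by Entrez ID. The test was checked on simulated data. Alternatives changed normalisation, probe set choice, filter, prior, terms, batches and replicates.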

Additional observations from a re-analysis of the deposited data

Results flagged for a closer look

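Of 50 sets of values, 1 for each of the 10 genes in each of the 5 groups, 1 held a line far from the others by Dixon's test, and chance gives about 2.5 of 50. This was Dab2 in EG 2i line 4, at 5.28, with the nearest line at 5.63 and a gap of 0.882 of the group's range. EG 2i against EG FCS for Dab2 is the comparison whose call was lost without that line (adjusted p = 0.0594 by limma). That line was also the only male line of EG 2i.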

How the results depend on the processing

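The number of genes of the 10 called in EG 2i against EG FCS was 5 with arrays centred on their medians and 6 with a replicate block. It was 1 with the fibroblast marker level as a term, and 1 with that term in EG 2is. The replicate block matched EG lines by number, but same-numbered EG 2i and EG FCS lines shared sex in only 2 of 4 pairs. Of these pairs 0 correlated best with their own number (-0.13 to 0.07), so the 6 rest on no known pairing. In ES 2i the number called was 2 with quantile normalisation again, 2 with arrays centred, 4 with only the compared groups and 4 in batch 2 alone. Amn in EG 2i passed under 6 such settings without leaving out a line (adjusted p = 0.021 to 0.0454 by limma). Leaving out 1 line gave 2 to 5 called in EG 2i, 5 to 6 in EG 2is, 1 to 2 in ES 2i and 0 to 1 for the response difference. The Lrp2 calls held under all settings run. Over all genes, ES 2i against FCS gave 3631 genes with the marker term and 2460 in batch 1, EG 2i against EG 2is gave 1 with only the compared groups and 1 with the marker term, and EG FCS against ES FCS gave 6 without the batch term, 1 with the compared groups, 4 with the marker term, 1 in batch 1 and 2 to 4 without 1 line. EG 2i against ES 2i gave 1758 without the batch term, 15 with the compared groups, 471 with the replicate block, 201 in batch 1 and 301 to 872 without 1 line. That block matched EG and ES lines by number alone, which stands for no shared line. EG 2is against ES 2i gave 33 without the batch term, 4 without the sex term, 0 with the compared groups and 1 to 43 without 1 line. The response difference gave 179 with the array code in place of batch, 469 with arrays centred, 82 with the replicate block, 0 in batch 1 and 110 to 390 without 1 line. The marker level difference without 1 line was -0.82 to -0.61 in EG 2i and -0.86 to -0.64 in EG 2is, with an exact permutation p of up to 0.0571. Pairing of ES lines by number is uncertain (5 of 5 pairs share sex and batch, and 2 of 5 correlate best with their own number), and the replicate block left the ES count of the 10 at 1. The cause of these shifts was not tested. Sign changes of genes called in neither setting (78) were not counted. The filter on dim genes kept 16586 genes and all 10. Background correction was not varied, since array scanner files were not used here.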
